A study of Mus musculus with 40 samples.

Results

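The report covers 31 genes of cell proliferation in the mouse cortex, from the kinases and cyclins of mitosis to the helicase and clamp of DNA replication. They were chosen by name as mitosis and DNA replication genes that have at least 10 counts in at least 4 libraries. All 31 named genes met that minimum, among 21253 genes that met it out of 43346 listed, and these 21253 genes were tested.

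RNA from the cortex was sequenced as poly-A libraries from 40 mice in 4 groups of 10, each with 5 females and 5 males, to ask how the Trem2 H157Y change, a missense change in a receptor of microglia, bears on the brain with and without amyloid. WT mice carried 2 normal Trem2 alleles, and Hom mice were homozygous for Trem2 H157Y, a knock-in made by CRISPR/Cas9 in B6/CBA zygotes. The non-amyloid cohort was 6 months old and carried no amyloid transgene. The amyloid cohort was 8.5 months old and hemizygous for 5xFAD, which includes mutant human APP driven by the Thy1 promoter, active in neurons. No group was treated. The study states that results come from the offspring of founder 1 unless said otherwise, and the mice are taken to be of that line. The amyloid cohort also came from a further cross, of the knock-in with 5xFAD mice, and may differ in genetic background. Transgenes, age and this cross changed together between the cohorts, and their shares in a difference cannot be told apart.

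Cells that divide copy their DNA in S phase and part it in mitosis, and each step has its own genes, most of which are transcribed only in cells that cycle. E2F factors drive the replication genes, and a later programme that acts through CHR and CCAAT elements drives the mitotic genes. In the adult cortex neurons do not divide, while oligodendrocyte progenitors, microglia and endothelial cells can, and microglia are known to multiply around amyloid plaques.

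Total counts ran from 41646271 to 105903846 per library, with a median of 77193387. The 31 members together took 6627 to 13464 counts of each library. In CPM, the count scaled by library size with edgeR, their sum had a median of 120.3 in non-amyloid WT mice and 114 in non-amyloid Hom mice. In the amyloid cohort it was 127 in WT and 125 in Hom mice. In bulk tissue, more or fewer dividing cells and more or less RNA per cell cannot be told apart, and this holds for each value given here.

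A single library stood apart. In replicate 19, an amyloid Hom female with the lowest total, 0.620% of counts fell on 498 genes whose exons are covered to at least 50% by a gene of the other strand with a level at least 10 times as high. In the other 39 libraries that share was 0.00681% to 0.00916%. Exons of a gene on the other strand overlapped 7 of the 31 members: Ccna2, Kif20a, Nusap1, Prc1, Tk1, Cdc20 and Mcm7. The study set aside 1 homozygous 5xFAD female, which it does not name, after checks that included read strand, whereas all 40 libraries are used here.

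Ccna2, cyclin A2, shares 510 exon bases with Exosc9 on the other strand, and its level was 17.9 CPM in replicate 19 against at most 3.03 CPM in the other 39 mice. Kif20a, a kinesin of the late spindle, shares 1271 bases with Cdc23 and stood at 11.7 CPM against at most 1.54 CPM. Nusap1, which bundles spindle microtubules, stood at 6.22 CPM against at most 1.16 CPM, and Oip5, with which it shares 172 bases, had a median of only 0.847 CPM. These values lie beyond all the other mice of the study, as does that of Prc1, a bundler of antiparallel microtubules, at 6.01 CPM against at most 2.01 CPM. For Tk1 the library was at 0.845 CPM and the next highest mouse at 0.534 CPM. These 5 members were more than 3 times the median of the other 9 amyloid Hom mice, and all 5 are among the 7 with overlap, while the other 26 members stood at 0.590 to 1.66 times that median. The part of read strand in these values was not tested, and for these 5 members the values in amyloid against non-amyloid Hom mice are given with and without it. Values of marker genes and of the further cell cycle lists in amyloid Hom mice are given with it alone.

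**Figure D1:**
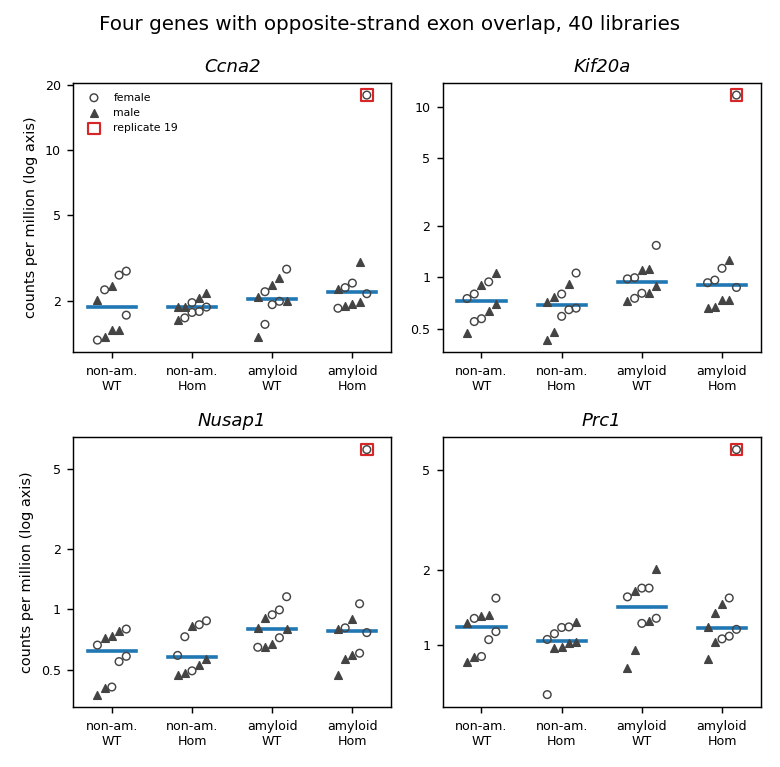
Level in CPM (log axis) of Ccna2, Kif20a, Nusap1 and Prc1 in each mouse of the 4 groups, females as open circles and males as filled triangles, replicate 19 as a red square and the group median as a blue line. Replicate 19 stands at 17.9, 11.7, 6.22 and 6.01 CPM, above all the other mice.

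The proliferation genes were expressed at low levels. Per kilobase of gene length, the median level over the 40 mice ran from 0.0481 CPM per kb for Bub1 to 15.5 CPM per kb for Pcna. The median of the 31 members was 0.439 CPM per kb, against 3.05 CPM per kb over all tested genes, and 29 members lay below the latter, with Pcna and Mcm4 above it. By role, the 7 members of the replication helicase and clamp ran from 0.839 to 15.5 CPM per kb. The 10 mitotic kinases, cyclins and checkpoint members ran from 0.0481 to 0.784, the 11 chromosome and spindle members from 0.0730 to 0.812, and the 3 genes of nucleotide supply from 0.0488 to 0.777 CPM per kb. Pcna, the sliding clamp of replication that also serves DNA repair, took 30.3% of the members' counts, and with Mcm4, Mcm7, Mcm6 and Mcm5 it took 65.7%. A sum over members is therefore mostly a sum over these 5 genes.

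Mouse-to-mouse spread differed between members. Without replicate 19, the coefficient of variation within groups was under 10% for 3 members, at 6.61% for Mcm4, 6.95% for Mcm7 and 9.40% for Pcna. It was over 30% for 8 members, among them Bub1 at 47.1%, Aurkb at 41.0% and Cdk1 at 40.3%. Bub1 had 2 to 42 counts in a library and Aurkb 3 to 41, and the part of counting error in their spread was not tested, while Mki67 had 70 to 282 counts with a coefficient of 32.6%. In the fit of amyloid WT against non-amyloid WT mice the members' median biological coefficient of variation was 22.4%, against 17.7% over all tested genes. The members lie on 16 chromosomes and thus do not form a cluster in the genome.

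A member is said to have risen or fallen when edgeR's quasi-likelihood test gave a Benjamini-Hochberg adjusted p under 0.05 over all tested genes and a log2 fold change over 0.25 in size. The first question was how the members differ between the cohorts, and the mice of each genotype were compared apart. Cdk1, the kinase that starts mitosis, rose in amyloid mice of both genotypes, 2.51-fold in WT and 1.92-fold in Hom mice. Mcm3, a subunit of the replicative helicase, and Tk1, the thymidine kinase of S phase, rose in WT mice. The Mcm3 call was kept in each of the 20 fits that left out a mouse, and the Tk1 call in 7 of 20. Mki67 and Top2a, the usual marks of cycling cells, did not pass the test in either genotype. No member fell.

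In WT mice 3 of 31 members rose, where 6.21% of all tested genes rose and 7.31% rose or fell. DESeq2 also called 3 members, with 8.67% of all genes. An unadjusted p under 0.05 was found for 13 members, against 20% of all genes, and 12 of them were higher, against 13% of all genes. The log2 fold change was above 0 for 22 members, against 50.6% of genes, and the members' median was 0.18 with 0.00 over all tested genes. The share of members called was thus near that of all genes, and the share with a low unadjusted p was 41.9%.

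In Hom mice 1 of 31 members rose, where 4.58% of all tested genes rose and 5.83% rose or fell. DESeq2 called 2 members, Cdk1 and Top2a, with 6.97% of all genes. Of members whose unadjusted p was under 0.05, 10 were higher and none was lower, against 24.4% of genes in either direction and 13% higher. The log2 fold change was above 0 for 27 members, against 52.5% of genes, with a median of 0.19 against 0.01. Without replicate 19, 1 member was called, again Cdk1, with 4.87% of all genes, and 7 had an unadjusted p under 0.05, with 21.6% of all genes. These comparisons share no mice with those in WT mice, but both share mice with the Hom against WT comparisons.

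**Figure D2:**
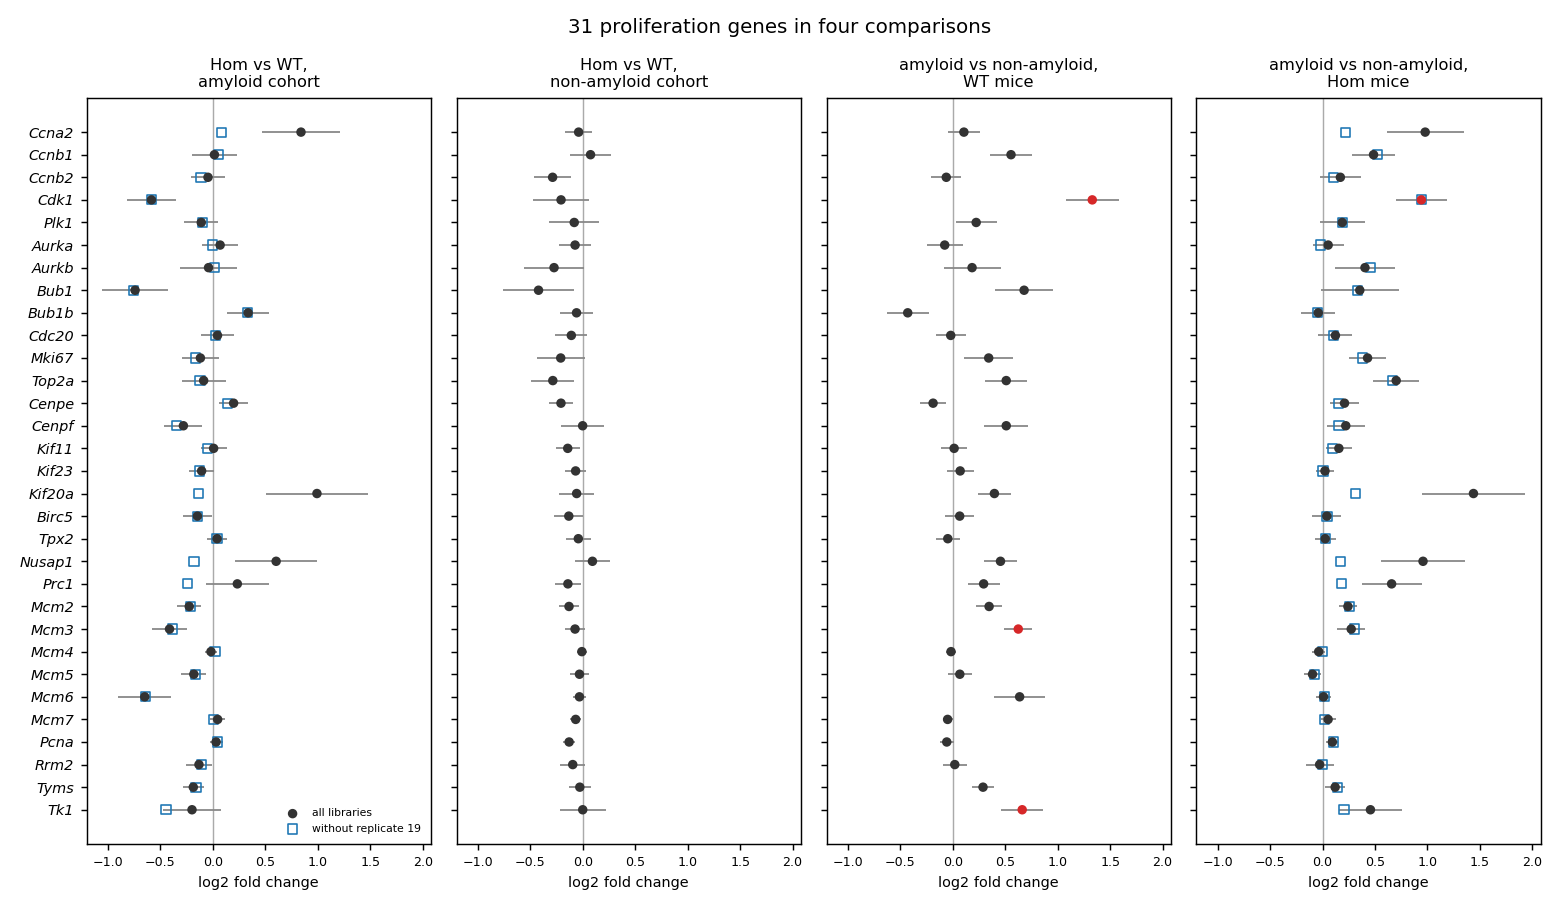
Log2 fold change (points) and its standard error (bars) of the 31 members in 4 comparisons of 10 against 10 mice, red where the gene was called, with blue open squares for the value without replicate 19. Cdk1 is called in both cohort comparisons, and Ccna2, Kif20a, Nusap1 and Prc1 move toward 0 without replicate 19 in amyloid against non-amyloid Hom mice.

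Among the mitotic kinases, cyclins and checkpoint genes, Cdk1 (ENSMUSG00000019942, mm10 chr10:69336635-69352938) had a lowest, median and highest level of 0.188, 0.271 and 0.674 CPM in non-amyloid WT mice. In amyloid WT mice these were 0.358, 0.857 and 1.58 CPM. Of the 10 amyloid WT mice, 8 lay above the highest non-amyloid WT mouse, and the groups overlapped in the rest. Cdk1 thus had a log2 fold change of 1.33 (SE 0.25, n = 10 and 10, edgeR adjusted p = 0.00084). In Hom mice the levels were 0.172, 0.268 and 0.580 CPM without amyloid and 0.241, 0.567 and 0.978 CPM with it. There, 4 amyloid mice lay above all non-amyloid mice, and 9 of 10 lay above their median. For Hom mice the log2 fold change of Cdk1 was 0.94 (SE 0.24, edgeR adjusted p = 0.019). Cdk1 was called in each of the 20 fits that left out a mouse, in both genotypes.

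With all mice, no cyclin partner of Cdk1 was called. Ccnb1, cyclin B1, had a log2 fold change of 0.56 (SE 0.20, edgeR adjusted p = 0.104) in WT and of 0.49 (SE 0.21, adjusted p = 0.149) in Hom mice. It was called in WT mice in a single fit of 20, the one without amyloid WT replicate 36. Ccnb2, cyclin B2, was at -0.06 in WT and 0.17 in Hom mice. Ccna2 was at 0.11 in WT mice, and in Hom mice at 0.98 with replicate 19 and 0.22 without it.

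Of the mitotic kinases, Plk1 was at 0.22 in WT and 0.19 in Hom mice, Aurka at -0.08 and 0.05 (-0.02 without replicate 19), and Aurkb at 0.19 and 0.40. Of the spindle checkpoint genes in WT mice, Bub1 was at 0.68 (SE 0.28) and Bub1b, which codes for BubR1, at -0.43 (SE 0.20), with edgeR adjusted p = 0.152 and 0.227. Bub1b had the lowest log2 fold change of the 31 members in that comparison. Cdc20, the activator of the anaphase-promoting complex, was at -0.02 in WT and 0.12 in Hom mice. Apart from Cdk1, then, no gene of this role passed the test.

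**Figure D3:**
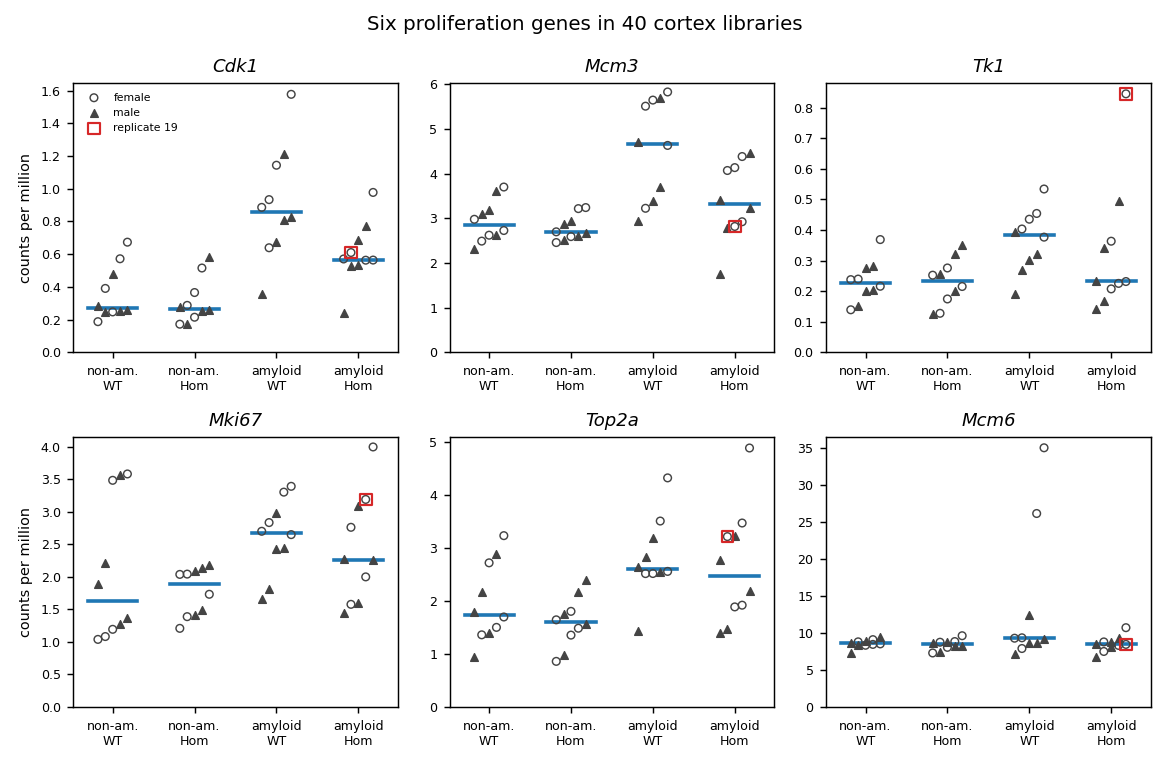
Level in CPM of Cdk1, Mcm3, Tk1, Mki67, Top2a and Mcm6 in each mouse of the 4 groups, females as open circles and males as filled triangles, replicate 19 as a red square and the group median as a blue line. For Cdk1, 8 of 10 amyloid WT mice lie above all non-amyloid WT mice, and for Mcm6, 2 amyloid WT females stand at 26.2 and 35 CPM.

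Among the chromosome and spindle genes no member was called. Mki67, which codes for the Ki-67 coat of mitotic chromosomes, had a lowest, median and highest level of 1.04, 1.63 and 3.58 CPM in non-amyloid WT and 1.66, 2.68 and 3.39 CPM in amyloid WT mice. All 10 amyloid WT mice lay above the non-amyloid median, and none lay above the highest non-amyloid mouse. Its log2 fold change was 0.34 (SE 0.23, n = 10 and 10, edgeR adjusted p = 0.460). In Hom mice the levels were 1.21, 1.89 and 2.18 CPM without amyloid and 1.44, 2.27 and 4.0 CPM with it. Of the amyloid Hom mice 6 lay above all non-amyloid Hom mice, with a log2 fold change of 0.43 (SE 0.18, adjusted p = 0.136), and of 0.38 without replicate 19.

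Top2a, topoisomerase II alpha, which untangles sister chromatids, had levels of 0.946, 1.74 and 3.23 CPM in non-amyloid WT and 1.43, 2.60 and 4.32 CPM in amyloid WT mice. The groups overlapped widely, with 2 amyloid WT mice above all non-amyloid WT mice. The log2 fold change was 0.51 (SE 0.20, edgeR adjusted p = 0.136). In Hom mice the levels were 0.859, 1.61 and 2.40 CPM without amyloid and 1.4, 2.48 and 4.89 CPM with it. In Hom mice 5 amyloid mice lay above all non-amyloid mice, and the log2 fold change of 0.70 (SE 0.22) had an adjusted p of 0.051. Without replicate 19 it was 0.67, with an adjusted p of 0.074. Top2a was called without amyloid Hom replicate 3, 10, 33 or 40 and without non-amyloid Hom replicate 4 or 21, and not in the other 14 such fits, where the adjusted p reached 0.112.

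All 11 chromosome and spindle genes had a log2 fold change above 0 in Hom mice, and 9 of 11 did in WT mice. Kif20a stood at 0.40 in WT mice, and in Hom mice at 1.44 with replicate 19 and 0.31 without it. Nusap1 stood at 0.46 in WT mice, and in Hom mice at 0.96 with the library and 0.17 without it. Prc1 was at 0.30 in WT mice, and its value in Hom mice went from 0.66 to 0.18. The kinetochore genes Cenpe and Cenpf stood at -0.19 and 0.51 in WT mice and at 0.21 and 0.22 in Hom mice, where they were at 0.15 and 0.16 without replicate 19. Kif11 and Kif23, motors of spindle assembly and of cytokinesis, and Tpx2, a spindle assembly factor, lay within 0.16 of 0 in both genotypes. Birc5, or survivin, of the chromosomal passenger complex, was at 0.07 and 0.04. None passed the test.

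Among the replication genes Mcm3 (ENSMUSG00000041859, mm10 chr1:20802968-20820312) had a lowest, median and highest level of 2.31, 2.85 and 3.70 CPM in non-amyloid WT and 2.94, 4.66 and 5.83 CPM in amyloid WT mice. Of the amyloid WT mice 7 lay above all non-amyloid WT mice, and all 10 lay above their median. Mcm3 had a log2 fold change of 0.63 (SE 0.13, n = 10 and 10, edgeR adjusted p = 0.0028) and was called in each of the 20 fits without a mouse. In Hom mice the levels were 2.46, 2.69 and 3.24 CPM without amyloid and 1.75, 3.32 and 4.46 CPM with it. The log2 fold change of 0.27 (SE 0.13) did not pass the test, with an adjusted p of 0.205.

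Of the 6 helicase subunits only Mcm3 was called. Mcm2 was at 0.35 (SE 0.13, edgeR adjusted p = 0.103) in WT and 0.24 (SE 0.087, adjusted p = 0.093) in Hom mice, and all 10 amyloid Hom mice lay above the non-amyloid Hom median. Mcm2 was called in WT mice in 1 of the 20 fits that left out a mouse, the one without amyloid WT replicate 8, and in the fit of all 40 libraries. Mcm4, Mcm5 and Mcm7 stood at -0.02, 0.07 and -0.05 in WT mice and at -0.04, -0.10 and 0.05 in Hom mice. Pcna was at -0.06 and 0.09.

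Mcm6 (ENSMUSG00000026355, mm10 chr1:128331590-128359664) had its higher values in a pair of mice. Amyloid WT replicates 5 and 12, both female, stood at 26.2 and 35 CPM, while the other 38 mice lay between 6.75 and 12.4 CPM. The medians were 8.60 CPM in non-amyloid WT, 8.47 in non-amyloid Hom, 9.26 in amyloid WT and 8.51 in amyloid Hom mice. In WT mice the log2 fold change was 0.64 (SE 0.25, edgeR adjusted p = 0.127), and in Hom mice it was 0.01. Without replicate 12 the Mcm6 value in WT mice was 0.35, and without replicate 5 it was 0.48. Replicate 12 also had the highest Mcm2 and Mcm5 of its group, at 6.44 and 9.47 CPM, while its Mcm4 and Mcm7, at 14.3 and 12.2 CPM, lay among those of the other mice. Why these females were high was not tested.

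In nucleotide supply, Tk1 (ENSMUSG00000025574, mm10 chr11:117815526-117826092) had levels of 0.139, 0.227 and 0.369 CPM in non-amyloid WT and 0.190, 0.385 and 0.534 CPM in amyloid WT mice. Of the amyloid WT mice 6 lay above all non-amyloid WT mice, and 9 lay above their median. Its log2 fold change was 0.66 (SE 0.20, n = 10 and 10, edgeR adjusted p = 0.041). Tk1 rests on 8 to 42 counts a library, and the call was kept in 7 of 20 fits without a mouse. It was lost without non-amyloid WT replicate 1, 15, 17, 28, 29, 31 or 38 and without amyloid WT replicate 5, 8, 12, 26, 27 or 32, with adjusted p up to 0.088. It was also lost with no filter on low counts, at an adjusted p of 0.081, and in the fit of all 40 libraries, at 0.091.

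In Hom mice Tk1 had levels of 0.127, 0.234 and 0.351 CPM without amyloid and 0.140, 0.232 and 0.845 CPM with it, the highest being replicate 19. The medians were close, and the log2 fold change was 0.46 with that library and 0.21 without it. Tyms, thymidylate synthase, was at 0.29 (SE 0.11, edgeR adjusted p = 0.114) in WT and 0.12 in Hom mice. Rrm2, the S phase subunit of ribonucleotide reductase, was at 0.02 and -0.03.

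The next question was whether the Trem2 H157Y change went with a difference in proliferation genes in either cohort. No member was called in Hom against WT mice. In the amyloid cohort Mcm6, Cdk1, Mcm3 and Bub1 had lower values in Hom mice and Ccna2 a higher one, each short of the threshold. Without replicate 19 the Ccna2 value was 0.08. In the non-amyloid cohort Pcna alone had an unadjusted p under 0.05. The differences in that cohort nearly all lay below 0. Top2a was at -0.29 there, and Mki67 at -0.21, or -0.08 without non-amyloid WT replicate 24.

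In the amyloid cohort edgeR called 0 of 31 members, with 0.0753% of all tested genes, and DESeq2 called 0, with 1.4% of all genes. There were 5 members with an unadjusted p under 0.05, against 9.67% of all genes, and 18 members had a value below 0, against 49.6% of genes. The members' median log2 fold change was -0.05, and 0.00 over all tested genes. Without replicate 19, edgeR called 0 members with 0.0706% of genes, 4 had an unadjusted p under 0.05 with 7.82% of genes, and the median was -0.12. Of 16 genes called in all, none was a member, and that count ran from 6 to 204 over the 20 fits without a mouse, the highest without amyloid WT replicate 13 and the lowest without amyloid WT replicate 12.

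Mcm6 was lower in amyloid Hom than in amyloid WT mice by a log2 fold change of -0.65 (SE 0.25, n = 10 and 10, edgeR adjusted p = 0.352), with the pair of high WT females in that comparison. Mcm6 was at -0.36 without replicate 12 and at -0.48 without replicate 5. For Cdk1 the value was -0.59 (SE 0.23, adjusted p = 0.358), and 9 of 10 Hom mice lay within the range of the WT mice. Mcm3 was at -0.41 (SE 0.16, adjusted p = 0.367), with all 10 Hom mice at or below the WT median and 4 below the lowest WT mouse. Bub1 was at -0.74 (SE 0.31, adjusted p = 0.404), from 2 to 42 counts a library.

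Ccna2 was at 0.84 (SE 0.37, edgeR adjusted p = 0.455) in that comparison and at 0.08 without replicate 19. Tk1 stood at -0.45 (SE 0.23, edgeR adjusted p = 0.671) without replicate 19. Without that library Kif20a went from 0.99 to -0.14, Nusap1 from 0.60 to -0.18 and Prc1 from 0.23 to -0.24, and the sign also turned for Aurka, Aurkb, Kif11 and Mcm4, which lay within 0.07 of 0. Mki67 was at -0.12 (SE 0.18) and Top2a at -0.09 (SE 0.21), so the marks of cycling cells did not pass the test. Top2a was at 0.0047 without amyloid WT replicate 32.

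In the non-amyloid cohort edgeR called 0 of 31 members, with 0.0329% of all tested genes, and DESeq2 called 0, with 0.0518% of genes. Pcna, the only member with an unadjusted p under 0.05 against 4.61% of genes, stood at -0.13 (SE 0.060, edgeR adjusted p = 0.965). Its levels were 28.9, 39.2 and 45.8 CPM in WT and 29.9, 36.2 and 37.9 CPM in Hom mice, and no Hom mouse lay above the WT median. A value below 0 was found for 29 of 31 members, against 51% of genes, with a median of -0.07 against -0.0031 over all tested genes. Members may vary together, which was not tested, so these 29 are not taken as separate observations.

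The test of the genotype effect between cohorts called 0 of 31 members in edgeR, with 0% of all tested genes, and 0 in DESeq2, with 0.0847% of genes. At an unadjusted p under 0.05, 3 members differed, against 10.3% of genes: Mcm6 at -0.61 (SE 0.27), Cenpe at 0.41 (SE 0.18) and Ccna2 at 0.88 (SE 0.41). Ccna2 was at 0.12 and Cenpe at 0.35 without replicate 19. Cdk1, which rose in amyloid mice of both genotypes, had a difference of -0.37 (SE 0.36, edgeR adjusted p = 0.677). Mcm3, which rose in WT mice, had one of -0.34 (SE 0.19, adjusted p = 0.526), so its rise is not shown to differ between genotypes.

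Females and males were compared within each cohort, with genotype kept in the fit, since each group held 5 of each sex. In the amyloid cohort most proliferation genes had a higher value in females, and none passed the test. In the non-amyloid cohort more members also had a value above 0 than below, and none passed the test. The difference between the cohorts did not pass the test either.

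In the amyloid cohort edgeR called 0 of 31 members, with 0.24% of all tested genes, and DESeq2 called 0, with 1.18% of genes. At an unadjusted p under 0.05, 7 members differed, against 7.92% of genes, and all 7 were higher in females, against 6% of genes. They were Bub1, Mki67, Cenpe, Kif11, Kif20a, Nusap1 and Mcm6. A value above 0 was found for 28 members, against 53.5% of genes. Without replicate 19, itself a female, edgeR called 0 members with 0.419% of genes, and 2 members, Bub1 and Mcm6, had an unadjusted p under 0.05, with 7.04% of genes.

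Mki67 had levels of 1.58, 2.80 and 4.0 CPM in the 10 amyloid females and 1.44, 2.27 and 3.09 CPM in the 10 amyloid males. The ranges overlapped over most of their length, and the log2 fold change was 0.36 (SE 0.16, edgeR adjusted p = 0.591) and 0.32 without replicate 19. Cenpe had levels of 1.68, 2.78 and 3.68 CPM in females, the highest being replicate 19, and 1.74, 2.09 and 2.76 CPM in males. Its log2 fold change was 0.31 (SE 0.13, edgeR adjusted p = 0.506), and 0.25 without replicate 19. Kif11 was at 0.26 (SE 0.11), and at 0.20 without replicate 19. Mcm6 was at 0.51 (SE 0.24), and both high mice were female. In the same comparison 7 of 8 microglia markers had an unadjusted p under 0.05, all higher in females, of which edgeR called 0 and DESeq2 5. Of all tested genes, 6% were higher in females with an unadjusted p under 0.05, and edgeR called 0.24% and DESeq2 1.18%. Gfap, an astrocyte marker, was called by edgeR as higher in females, at 0.83 (SE 0.17, adjusted p = 0.038). The part of these cells in the members' sex difference was not tested.

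In the non-amyloid cohort edgeR called 0 of 31 members with 0.122% of genes, DESeq2 called 0 with 0.212% of genes, and 0 had an unadjusted p under 0.05, against 6.59% of genes. A value above 0 was found for 22 members, against 49.9% of genes, with a median of 0.03, where the amyloid cohort had 0.18. The test of the sex difference between cohorts called 0 members with 0% of genes in edgeR and 0 with 0% of genes in DESeq2, and 0 had an unadjusted p under 0.05, against 6.31% of genes. Mki67 had a difference between cohorts of 0.43 and Top2a of 0.44, with edgeR adjusted p = 0.915 for each.

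Within a group, certain mice had the highest value for more members than other mice did. In non-amyloid Hom mice replicates 4 and 11 were the highest for 12 and 11 of the 31 members. In non-amyloid WT mice replicates 24 and 7 led for 10 and 9 members, and in amyloid WT mice replicates 12 and 32 for 12 and 8. In amyloid Hom mice replicate 19 led for 10 members and replicate 16 for 9. Replicate 12 was also the lowest of its group for 5 members, and 5 of the 10 for replicate 19 are Ccna2, Kif20a, Nusap1, Prc1 and Tk1. How often the same mice led among all tested genes is not given here. A trait of the members thus cannot be told from one of the whole library. Whether members vary as a set was not tested.

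Mki67 and Top2a were correlated within groups over 10 mice, on log2 CPM, in a family of 12 relations with permutation tests. Pearson's r was 0.872 in non-amyloid WT mice (permutation p = 0.00124, adjusted p = 0.0074) and 0.920 in amyloid Hom mice (p = 0.00033, adjusted p = 0.0040), with Spearman's rho of 0.782 (p = 0.0098, adjusted p = 0.059) and 0.830 (p = 0.0049, adjusted p = 0.058). Without the 2 mice farthest from the Top2a median, r was 0.925 and 0.834, and without replicate 19 it was 0.919 in amyloid Hom mice. In non-amyloid Hom mice r was 0.727 (p = 0.016, adjusted p = 0.048) with rho of 0.758 (p = 0.015, adjusted p = 0.060), and r was 0.462 without 2 mice, so it rests in part on them, although leaving them out also narrows the range of values. In amyloid WT mice r was 0.631 (p = 0.054, adjusted p = 0.108) with rho of 0.176 (p = 0.636, adjusted p = 0.694), and -0.118 without 2 mice.

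Top2a was also set against Cx3cr1, a chemokine receptor of microglia, and Pdgfra, a growth factor receptor of oligodendrocyte progenitors. With Cx3cr1, r was 0.803 in amyloid WT mice (permutation p = 0.012, adjusted p = 0.047) with rho of 0.358 (p = 0.313, adjusted p = 0.526), and 0.027 without 2 mice, on which it rests. In amyloid Hom mice it was 0.570 (p = 0.087, adjusted p = 0.150) with rho of 0.612 (p = 0.066, adjusted p = 0.160), and 0.893 without 2 mice and 0.572 without replicate 19. In non-amyloid mice r was -0.283 in WT (p = 0.428, adjusted p = 0.570; rho -0.176, p = 0.632, adjusted p = 0.694; -0.179 without 2 mice) and -0.441 in Hom (p = 0.207, adjusted p = 0.310; rho -0.333, p = 0.351, adjusted p = 0.526; -0.348 without 2 mice).

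With Pdgfra the highest r was 0.656, in non-amyloid WT mice (permutation p = 0.039, adjusted p = 0.094), with rho of 0.721 (p = 0.023, adjusted p = 0.070) and r of 0.522 without 2 mice. In non-amyloid Hom mice r was -0.178 (p = 0.621, adjusted p = 0.678) with rho of -0.103 (p = 0.783, adjusted p = 0.783) and r of 0.534 without 2 mice. In amyloid WT mice r was 0.234 (p = 0.532, adjusted p = 0.639) with rho of 0.479 (p = 0.166, adjusted p = 0.331) and r of 0.040 without 2 mice. In amyloid Hom mice r was 0.073 (p = 0.839, adjusted p = 0.839) with rho of 0.224 (p = 0.536, adjusted p = 0.694) and r of 0.330 without 2 mice and 0.220 without replicate 19. Relations of Top2a with marks of these cells thus did not hold across groups.

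Further genes of the cell cycle and marks of cell types were tested as lists, where 6.21% of all tested genes rose in amyloid WT and 4.58% in amyloid Hom mice. Of 40 further mitosis genes 5 rose in amyloid WT mice: Iqgap3, a scaffold protein, at 1.34 (SE 0.20), Dlgap5, a spindle protein, at 1.22 (SE 0.24), Ube2c, the ubiquitin carrier of the anaphase-promoting complex, at 0.81, Spc25, of the outer kinetochore, at 0.78 and Pttg1, or securin, at 0.97. The edgeR adjusted p ran from 4.6e-05 to 0.042. Pttg1 levels lay in separate steps. In non-amyloid WT mice 8 lay between 14.3 and 17.5 CPM, 1 at 0.692 and 1 at 31.5 CPM. All 10 amyloid WT mice lay between 28.4 and 33.9 CPM. In Hom mice 3 rose, namely Iqgap3 at 0.84, Nuf2, also of the outer kinetochore, at 0.38 and Kif2c, a microtubule-depolymerising kinesin, at 1.13. Cenpa, the histone variant of centromeres, fell, with a log2 fold change of -0.49 (SE 0.12). Levels of certain of these genes were low. In WT mice the medians of Dlgap5 were 0.156 CPM without amyloid and 0.378 CPM with it, and those of Ube2c 0.160 and 0.311 CPM. In Hom mice those of Kif2c were 0.104 and 0.284 CPM. The list's median was 0.19 in WT and 0.16 in Hom mice.

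Of 34 further replication genes none rose and 2 fell in amyloid WT mice, Clspn, a mediator of the replication checkpoint, at -0.80 (SE 0.15) and Lig1, the ligase of lagging strands, at -0.30 (SE 0.077). Lig1 also fell in Hom mice, at -0.32 (SE 0.083). The list's median was -0.03 in Hom and -0.05 in WT mice. The values in Hom mice include replicate 19. Its list sum was 348 CPM, against at most 279 CPM in the other amyloid Hom mice. With an unadjusted p under 0.05, 5 of the 34 were higher, against 13% of all genes, and 3 lower in WT mice, and DESeq2 called the same numbers as edgeR, 0 higher and 2 lower.

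Of 19 G1 cyclins, kinases and E2F genes, E2f8, a repressor of the E2F family, rose at 0.68 (SE 0.17) and Rbl1, or p107, at 0.41 (SE 0.12) in amyloid WT mice, while Ccnd2, cyclin D2, fell at -0.33 (SE 0.081). Of 12 CDK inhibitors and p53 targets, Cdkn1a, or p21, rose at 0.65 (SE 0.16) and Cdkn2c, or p18, at 0.32 (SE 0.10). In Hom mice edgeR and DESeq2 called 0 genes of either list, and 6 of 19 and 3 of 12 genes had an unadjusted p under 0.05, against 24.4% of all genes. In Hom against WT mice edgeR and DESeq2 called 0 genes of these 4 lists in either cohort. That comparison gave, for an unadjusted p under 0.05, 5 further mitosis, 4 further replication, 1 G1 and 0 CDK inhibitor genes in the amyloid cohort, where 9.67% of all genes had one, and 5, 1, 0 and 0 in the non-amyloid cohort, where 4.61% had one.

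Marks of other cell types moved between the cohorts beside the proliferation genes. All 8 microglia markers rose in amyloid WT mice and 7 of 8 in amyloid Hom mice. No microglia marker was at 0. The part of microglia in the rise of Cdk1, Mcm3 and Tk1 was not tested.

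Of the plaque-associated microglia markers 7 were measured, all 7 rose in amyloid WT and 5 of 7 in amyloid Hom mice, with a median list sum of 154 CPM in non-amyloid WT, 149 in non-amyloid Hom, 394 in amyloid WT and 248 in amyloid Hom mice and Cd9 the most abundant, which here and below is said per kb of gene length. Gpnmb fell in amyloid Hom against amyloid WT mice, at -1.61 (SE 0.29, edgeR adjusted p = 0.033), and edgeR did not call the other 6, while DESeq2 called 5 of the 7 as lower. Of the 8 microglia markers edgeR called 0 and DESeq2 6 in that comparison, and 7 had an unadjusted p under 0.05, all lower in Hom mice. Of all tested genes, edgeR called 0.0753% and DESeq2 1.4% there, and 9.67% had an unadjusted p under 0.05 in either direction.

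EdgeR and DESeq2 called 0 oligodendrocyte progenitor, neuroblast and erythroid markers between the cohorts or between Hom and WT mice. Of the 8 progenitor markers 4 had an unadjusted p under 0.05 in amyloid WT and 3 in amyloid Hom mice, all higher, against 13% of all genes higher in each genotype, with a median list sum of 574 CPM in non-amyloid WT, 589 in non-amyloid Hom, 623 in amyloid WT and 634 in amyloid Hom mice, and Bcas1 was the most abundant. The 8 neuroblast and neural progenitor markers had median list sums of 111, 102, 114 and 116 CPM, with Dcx the most abundant, and Hbb-bs was the most abundant of the erythroid list. The lowest p in amyloid Hom against WT mice went to Neu4 at -0.23, Eomes at -0.96 and Alas2 at 0.20. The part of these cells in the members' values was not tested.

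Of the 8 endothelial markers Cldn5 rose in amyloid WT mice, at 0.47 (SE 0.14), and Ly6c1 was the most abundant, with median list sums of 214, 223, 214 and 215 CPM. Of the 8 astrocyte markers Gfap, Aqp4 and Aldoc rose in amyloid WT and Gfap and Aqp4 in amyloid Hom mice, with Gfap at 3.16 and 2.33, and Slc1a2 was the most abundant. Of the 8 neuron markers Rbfox3 fell in amyloid Hom mice, at -0.28 (SE 0.081), and Snap25 was the most abundant. Of 12 T cell and neutrophil markers 9 were tested, since Cd3d, Nkg7 and Camp lay below the minimum of counts. Cd8a and Cd3e rose and Cd4 fell in amyloid WT mice, Cd8a and Cd3g rose in amyloid Hom mice, and Trbc2 was the most abundant per kb, with Cd4 higher in CPM. In amyloid mice the medians of Cd8a, Cd3e and Cd3g were under 0.2 CPM.

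Trem2, the edited gene, rose in amyloid mice, by a log2 fold change of 2.54 in WT and 1.69 in Hom mice. In Hom against WT mice it stood at -0.87 (SE 0.21, edgeR adjusted p = 0.076) with amyloid and -0.04 without. Thy1, whose promoter drives the transgenes, rose at 1.64 and 1.3. App rose at 0.27 in WT mice and stood at 0.14, not past the test, in Hom mice.

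Promoters are shown since the cell cycle programmes are read through known elements. RefSeq windows of 300 bases, from 250 before to 50 after the gene start on build GRCm38.p6, were matched for 26 of 31 members, with 28 windows in all, and Aurkb, Ccna2, Kif20a, Mcm4 and Tpx2 had no entry. Both strands were searched for the CHR element (TTTGAA or TTCGAA), the CCAAT box (CCAAT) and the E2F element (TTTCCCGC, TTTCGCGC, TTTGCCGC or TTTGGCGC), none of which contains another. The CHR letters were in 16 of 28 member windows (57.1%), against 19.2% of all 32851 windows of that length. CCAAT was in 24 (85.7%), against 37.4%, and the E2F letters were in 5 (17.9%), against 2.26%. The E2F letters stood in Cdk1, Mcm3, Mcm5, Mcm6 and Mcm7, so 4 of these 5 genes code for the helicase. Birc5, Nusap1, Tk1 and Tyms held none of the 3 elements, and Cdk1 and Mcm7 held all 3.

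The windows of Cdk1, Mcm3 and Tk1, which rose, and of Top2a and Mcm6, which did not pass the test, are printed. Mcm2, Ccnb1 and Tyms had a lower edgeR adjusted p in WT mice than Top2a and Mcm6, and their windows are not printed. The letters run 5′ to 3′ on the gene's strand, with every match on either strand in capitals. The printed windows are chr10:69352863-69353162 for Cdk1, chr1:20820263-20820562 for Mcm3, chr11:117825965-117826264 for Tk1, chr11:99024140-99024439 for Top2a and chr1:128359656-128359955 for Mcm6, all 5 on the minus strand. A match is a run of letters and not a site of binding.
Cdk1: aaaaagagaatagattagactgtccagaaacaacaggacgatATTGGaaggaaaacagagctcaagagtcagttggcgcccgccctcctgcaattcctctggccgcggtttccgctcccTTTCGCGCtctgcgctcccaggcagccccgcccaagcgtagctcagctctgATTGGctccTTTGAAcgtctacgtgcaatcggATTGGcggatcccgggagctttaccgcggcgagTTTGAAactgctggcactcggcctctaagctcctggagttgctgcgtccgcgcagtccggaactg
Mcm3: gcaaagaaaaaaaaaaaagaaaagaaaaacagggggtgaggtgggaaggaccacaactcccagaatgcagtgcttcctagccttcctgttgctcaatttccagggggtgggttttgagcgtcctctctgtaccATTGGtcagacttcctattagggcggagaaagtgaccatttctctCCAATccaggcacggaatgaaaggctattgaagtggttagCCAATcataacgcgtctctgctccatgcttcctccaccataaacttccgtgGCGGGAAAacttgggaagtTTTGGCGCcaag
Tk1: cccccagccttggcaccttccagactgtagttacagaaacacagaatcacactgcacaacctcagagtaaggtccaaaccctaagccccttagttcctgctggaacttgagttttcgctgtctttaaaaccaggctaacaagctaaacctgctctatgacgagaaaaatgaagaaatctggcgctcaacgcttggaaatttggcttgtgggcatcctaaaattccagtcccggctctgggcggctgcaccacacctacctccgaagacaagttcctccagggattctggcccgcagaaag
Top2a: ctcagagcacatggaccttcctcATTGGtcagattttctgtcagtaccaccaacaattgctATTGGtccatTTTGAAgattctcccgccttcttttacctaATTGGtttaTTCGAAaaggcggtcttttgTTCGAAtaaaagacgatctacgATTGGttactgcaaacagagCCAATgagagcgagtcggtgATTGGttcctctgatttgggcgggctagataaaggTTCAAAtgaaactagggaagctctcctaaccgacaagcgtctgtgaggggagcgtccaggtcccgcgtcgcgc
Mcm6: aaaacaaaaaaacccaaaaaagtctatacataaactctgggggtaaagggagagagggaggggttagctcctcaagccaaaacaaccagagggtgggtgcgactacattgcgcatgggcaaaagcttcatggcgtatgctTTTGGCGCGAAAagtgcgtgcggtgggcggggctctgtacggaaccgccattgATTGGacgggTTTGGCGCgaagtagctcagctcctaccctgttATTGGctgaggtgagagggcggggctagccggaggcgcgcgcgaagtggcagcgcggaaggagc

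Cdk1 held 1 E2F, 3 CCAAT and 2 CHR matches, and Top2a, the gene with the most CCAAT and CHR matches among the members, held 6 and 4 and no E2F match. Mcm3 held 2 E2F and 3 CCAAT matches, and Mcm6 held 3 and 2, both with no CHR match. In Tk1 no letters are in capitals. Whether these elements bear on the rise of Cdk1, Mcm3 or Tk1 in WT mice was not tested. No factor's binding was measured.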

How the data were processed

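Cortical RNA of 40 mice was measured, and the deposited table gives a raw count per gene and library that the authors made from paired-end reads aligned to mm10. The submitters' notes name STAR 2.5.2b and featureCounts 1.5.1, the study's methods name other aligners, and no strand setting is given in the sources used here. The deposited gene length, a unit of other kind than a count, was taken from the authors' table to compare levels between genes. The minimum for a gene was 10 counts in 4 or more of the 40 libraries, and each comparison was fitted on all genes that met it with edgeR 4.0.16 (TMM scaling, quasi-likelihood F test, two-sided) under R 4.3.3, with Benjamini-Hochberg adjustment over all 21253 genes. The standard error (SE) of a log2 fold change is its size over the square root of F. Comparisons were Hom against WT in each cohort, amyloid against non-amyloid in each genotype, female against male in each cohort with genotype as a term, and the 2 interactions. Correlations used log2 CPM with a prior count of 2 and 100000 permutations, two-sided, in Python 3.11.15 with SciPy 1.17.1. CPM was scaled over all 40 libraries.

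The alternatives were upper-quartile scaling, DESeq2 1.42.0, no filter on low counts, no minimum fold change, sex as a covariate, 1 fit of all 40 libraries, each library left out in turn and replicate 19 left out. The fit was tested on simulated data, and the outcome is not given here. Members and gene lists were chosen with earlier results of these data known. All 31 members are described. From each further list the genes called are named if there are 5 or fewer, otherwise the 5 with the lowest p, and where none is called the gene with the lowest p in amyloid Hom against WT mice. Marker lists also give the most abundant gene per kb, and Trem2, Thy1 and App are named as the edited gene and transgene check. Of 210 list genes 209 were matched, and Clec7a was not analysed here. Mitochondrial genes, 37 in number, are listed at 0. Certain genes of the marker lists are not reported here.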

Additional observations from a re-analysis of the deposited data

Results flagged for a closer look

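In each group of 10 mice the highest or lowest value was compared with its nearest neighbour. A gap that, over the group's whole range, passed Dixon's critical value at the 95% level was taken as far from the others. Chance alone gives about 1 in 20 such groups, and 15 of 136 groups met this, 12 of them among the 124 groups of a member.

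Replicate 19 of the amyloid Hom mice stood far above its group for 5 members: Ccna2 at 17.9 CPM, Kif20a at 11.7 CPM, Nusap1 at 6.22 CPM, Prc1 at 6.01 CPM and Tk1 at 0.845 CPM. Its share of counts on genes overlapped by a higher gene of the other strand, 0.620%, and the share of its counts on the 31 members, 166 CPM before TMM scaling, were also far above the group. The share of counts on overlapped genes was also far from its group, though small, in non-amyloid WT replicate 18 at 0.00916%.

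Among the amyloid WT mice replicate 12 was far above the others for Ccnb1 at 1.78 CPM and Kif20a at 1.54 CPM, and replicate 5 for Aurka at 1.91 CPM. Ccnb1 stood at 1.80 CPM in amyloid Hom replicate 39. In the non-amyloid Hom mice Prc1 was far below the others in replicate 37 at 0.635 CPM, Mcm7 was far above in replicate 20 at 13.9 CPM, and so was Tyms in replicate 4 at 2.20 CPM. Mcm6 was not among these values, since 2 mice of its group were high together.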

How the results depend on the processing

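No paired analysis was made because the labels used here give no litter or pairing of mice. The study states that the genotypes were littermates, so relations between mice are not part of the fits. The count of members called kept within 1.5 times its value under 37 of 41 alternatives that left out no library. Outside the amyloid against non-amyloid comparisons the count was 0 in the main fit, so a kept count there was 0 again. In amyloid against non-amyloid WT mice it was 3, and 2 or 4 was taken as kept although the genes called differed. In Hom against WT mice of the amyloid cohort it was 0, and 1 (Mcm6) in the fit of all 40 libraries. In amyloid against non-amyloid Hom mice it was 1, and 2 with upper-quartile scaling and with DESeq2 (Cdk1 and Top2a each time) and 4 in the fit of all 40 libraries (Ccna2, Cdk1, Kif20a and Top2a). Leaving out each library gave 1 to 2 there, 2 to 4 in WT mice and 0 to 0 in both Hom against WT comparisons. In WT mice it was 2 with no filter, without Tk1, and 4 in the fit of all 40 libraries (Cdk1, Mcm2, Mcm3 and Mcm6). The cause of these changes was not tested.

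In Hom against WT mice of the amyloid cohort the log2 fold change of 3 members turned with DESeq2, which replaces outlying counts in groups of this size, to -0.13 for Kif20a, -0.17 for Nusap1 and -0.23 for Prc1. Of the members followed one by one over the fits without a library, Kif20a ran from -0.14 to 1.1, Nusap1 from -0.18 to 0.70, Prc1 from -0.24 to 0.31 and Top2a from -0.23 to 0.0047, the first 3 turning without replicate 19 and Top2a without amyloid WT replicate 32.

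The members' median moved by less than 0.148, its SD over libraries, under every alternative run, but that SD is larger than the small medians: in Hom against WT mice of the amyloid cohort it ran from -0.12 to -0.0041 over the fits without a library, and in the genotype interaction it was 0.09, and -0.01 without replicate 19. With a prior count of 0.5, and without replicate 19, each Pearson's r kept its sign and its unadjusted p its side of 0.05. Over all genes, Hom against WT in the amyloid cohort gave 16 calls, and 298 with DESeq2, 251 with sex as a covariate, 612 in the fit of all 40 libraries and 8 with no filter. In the genotype interaction 0 calls became 18 with DESeq2 and 12 with sex as a covariate. Differences of more than 2 SE were also not called, as for Top2a in Hom mice at 0.70 (SE 0.22).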

Other observations

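Pttg1, which codes for securin, the inhibitor of separase, had levels in separate steps rather than a spread. In the non-amyloid cohort 1 WT and 2 Hom mice lay under 5 CPM, at most 0.692 and 0.511 CPM, and 8 WT and 7 Hom mice lay between 11.8 and 17.5 CPM. The last WT mouse stood at 31.5 and the last Hom mouse at 35.6 CPM. All 20 amyloid mice lay between 26.4 and 35.4 CPM. The call of Pttg1 in amyloid WT mice rests on these values. The steps were noticed after the values were seen, and their cause was not tested.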
